A study of Mus musculus with 24 samples.

Results

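Gadd45a, Gadd45b, Gadd45g, Ncam1, Runx1, and Ampd3 are genes known to respond to denervation, the loss of a muscle's nerve supply. They were chosen by name, with earlier results of these data known, and are 6 of the 56941 genes listed for the 60-min optical exercise experiment. Their levels were compared over 24 libraries, 6 from each of the unstimulated controls and tissues paced at 1, 4, or 10 Hz. All libraries came from C2C12, a mouse myoblast line, with the genotype ChR2::tdTomato, so the control tissues carried the same blue-light-gated channel (channelrhodopsin-2, variant H134R) and red fluorescent protein. The cells were differentiated on a fibrin hydrogel in horse serum and IGF-1, and the stimulated tissues received 60 min of blue light pulses each day. Unstimulated tissues also twitched on their own, and no tissue had ever had a nerve, so no group is denervated or innervated muscle. Because the controls were not stimulated, light and the contraction it drives cannot be told apart in comparisons with them. The libraries are biological replicates of 1 cell line.

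In adult muscle, contraction driven by the motor nerve keeps a set of genes low, and cutting the nerve releases them. GADD45 proteins are small stress-induced nuclear proteins that bind kinases such as MEKK4 and factors of DNA repair. Gadd45a is among the genes that rise most in denervated fibres, downstream of the histone deacetylase HDAC4. NCAM1 is a cell adhesion molecule that spreads over the surface of fibres without a nerve. RUNX1 is a transcription factor that protects denervated fibres from wasting, and AMPD3 is an enzyme that removes the amino group of AMP.

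Runx1 and Ampd3, 2 of the 6 genes, were called lower with pacing at both 1 and 4 Hz, where 7.74% and 12.3% of all genes tested were called lower. Runx1 went from a mean of 196 ± 10.5 CPM (counts relative to the library's total, scaled by TMM; SD, n = 6) in the controls to 124 ± 21.2 at 1 Hz and 123 ± 18.7 at 4 Hz, and Ampd3 from 44.4 ± 4.20 to 28.4 ± 4.72 and 27.4 ± 1.59. Gadd45a went the other way, from 437 ± 51.1 CPM to 606 ± 116 at 1 Hz and 669 ± 78.9 at 4 Hz. Gadd45b was higher at 4 Hz, in a call that 6 of the 12 libraries each undid when left out. Gadd45g and Ncam1 did not pass the test at any frequency, and none of the 6 genes passed it at 10 Hz.

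The 3 Gadd45 genes are short and compact, and the other 3 genes are long. In GRCm39, Gadd45a (ENSMUSG00000036390) lies at chr6:67012070-67014441 on the minus strand. Gadd45b (ENSMUSG00000015312) lies at chr10:80764523-80768038 and Gadd45g (ENSMUSG00000021453) at chr13:52000714-52002508, both on the plus strand. Each has 4 exons in its canonical transcript, of 1233, 1284, and 1071 bases. Ncam1 (ENSMUSG00000039542) spans chr9:49413436-49710357 on the minus strand with 18 exons and 6182 transcript bases. Runx1 (ENSMUSG00000022952) spans chr16:92398354-92623037 on the minus strand with 8 exons and 5861 transcript bases. Ampd3 (ENSMUSG00000005686) spans chr7:110366387-110411617 on the plus strand with 15 exons and 4074 transcript bases.

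The DNA just before the start of the 3 Gadd45 genes is shown because these genes hold letters in common. The part of these letters in their levels was not tested. The 250 bases upstream of the canonical start were read from GRCm39 on the strand of the gene, at chr6:67014391-67014640, chr10:80765657-80765906, and chr13:52000464-52000713. Capitals mark CCAATGG, the octamer ATGCAAAT (read as ATTTGCAT on the other strand), and the E-box CAGCTG, the site of MyoD and myogenin.
Gadd45a upstream: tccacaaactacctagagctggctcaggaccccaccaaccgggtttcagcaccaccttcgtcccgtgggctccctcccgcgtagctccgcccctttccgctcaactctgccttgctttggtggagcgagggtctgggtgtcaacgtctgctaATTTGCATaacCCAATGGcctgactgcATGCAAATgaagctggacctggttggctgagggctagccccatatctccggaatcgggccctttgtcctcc
Gadd45b upstream: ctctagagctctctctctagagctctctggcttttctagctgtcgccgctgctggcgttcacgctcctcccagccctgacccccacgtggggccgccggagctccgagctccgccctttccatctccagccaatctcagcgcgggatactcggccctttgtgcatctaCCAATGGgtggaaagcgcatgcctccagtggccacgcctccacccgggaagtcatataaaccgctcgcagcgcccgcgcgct
Gadd45g upstream: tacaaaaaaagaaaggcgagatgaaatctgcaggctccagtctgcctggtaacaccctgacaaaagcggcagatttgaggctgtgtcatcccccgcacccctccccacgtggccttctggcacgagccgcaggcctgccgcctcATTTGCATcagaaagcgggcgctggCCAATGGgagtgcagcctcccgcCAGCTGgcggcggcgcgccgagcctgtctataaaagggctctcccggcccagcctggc

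CCAATGG stands once in each of the 3 and also in Runx1, where it begins 21 bases after the start and so lies outside the bases printed for that gene. In the Gadd45 genes it stands upstream, with its first base at position -87 in Gadd45a, -82 in Gadd45b, and -81 in Gadd45g, counted back from the start. It is found on either strand in 5.47% of 21757 promoters of protein-coding genes, searched from 250 bases before to 50 after the start. The octamer is in 1.63% of them, and it stands at -98 and -71 in Gadd45a and at -106 in Gadd45g. Both of these motifs were picked after the sequences had been read, so their presence is a description. The E-box, in 14.9% of promoters, stands at -58 in Gadd45g and in none of the other 5 genes. Neither the AP-1 site TGACTCA (4.70% of promoters) nor the cyclic AMP site TGACGTCA (2.45%) was found in any of the 6 windows.

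The upstream bases of Runx1 are shown because they hold a copy of the motif that RUNX proteins themselves bind. The region is chr16:92623038-92623287, read on the minus strand, and capitals mark ACCACA, the other strand of TGTGGT, at position -233.
Runx1 upstream: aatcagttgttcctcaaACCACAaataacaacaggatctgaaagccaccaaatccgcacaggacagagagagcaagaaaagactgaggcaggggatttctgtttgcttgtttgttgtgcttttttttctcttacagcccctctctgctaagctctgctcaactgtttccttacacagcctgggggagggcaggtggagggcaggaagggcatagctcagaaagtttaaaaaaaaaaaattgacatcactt

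TGTGGT is in 15.3% of the promoters on either strand, and Ncam1 also has a copy, which begins at -5 and runs across its start. The window of Ampd3 held none of the 6 motifs. None of the motifs overlaps another in these windows.

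Total estimated counts ran from 8052369 to 18159144 per library, and 13315 genes passed the filter on low counts, all 6 genes among them. The share of mitochondrial transcripts ran from 0.545% to 8.90% of counts, highest in 4 Hz replicate 3. The labelled cell type is myoblast, and after differentiation all 7 myotube markers were present, with summed TPM (transcripts per 1000000, a level per transcript length) of 10171 to 16995 in every library. The 4 markers of myoblasts and reserve cells summed to 45.2 to 91.4 TPM, and they moved at 1 and 4 Hz in both directions, as given beside Runx1. Markers of cells from outside the muscle lineage were mostly near 0. All 4 Schwann cell, 4 fat cell, and 4 endothelial markers had means under 1 TPM in every group, as had 5 of 6 neuronal and 3 of 4 macrophage markers. The exceptions, Stmn2 and Cd68, were at 49.1 to 59.6 TPM and 71.3 to 84.6 TPM. Short transcripts were higher than long ones in many libraries at 1 and 4 Hz. Genes with a canonical transcript of up to 1000 bases stood 0.57 to 0.64 above the control mean in median log2 CPM in 1 Hz replicates 4 and 6 and 4 Hz replicates 1, 3, and 4, and at most 0.32 above it in the other 19 libraries. The Gadd45 genes are short and Runx1, Ampd3, and Ncam1 long, so the levels of each gene at 1 and 4 Hz against the controls are given below also without these 5 libraries and with a correction for length.

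**Figure D1:**
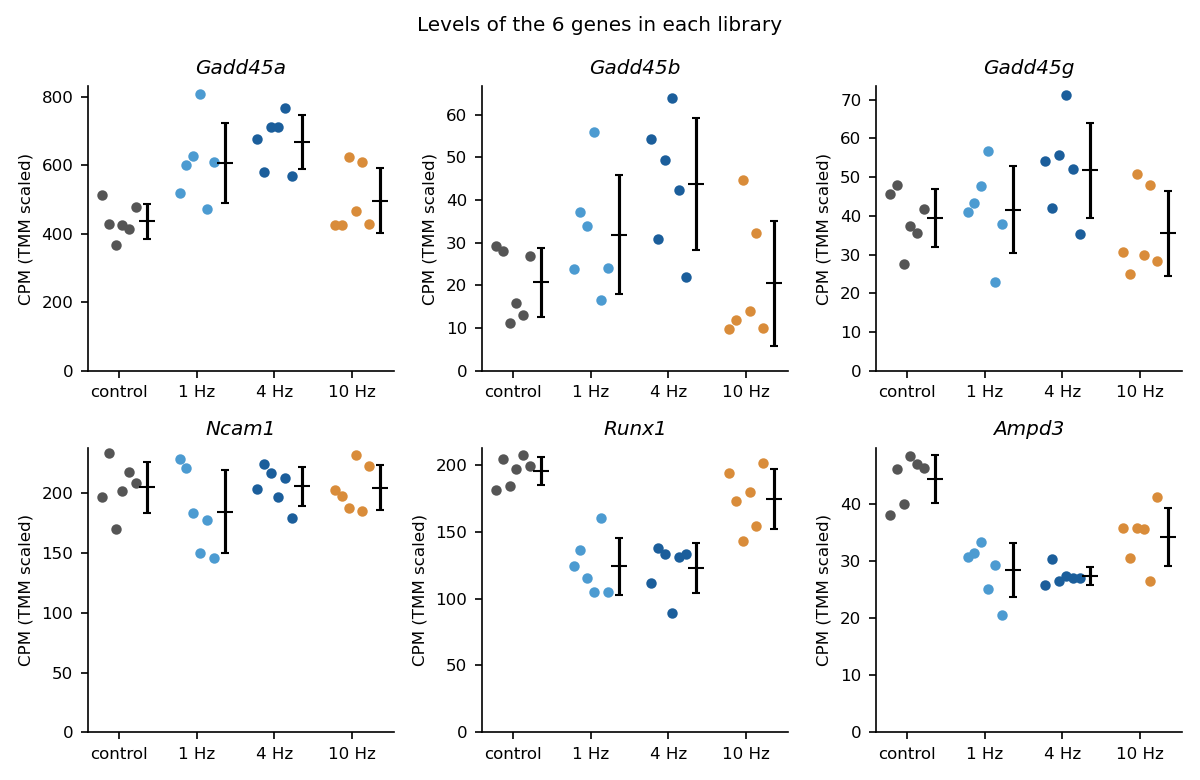
Level of each gene in CPM scaled by TMM (y axis, from 0) in the 24 libraries, 1 point per library, by condition (x axis), with the mean and SD of 6 libraries as a dash and bar. Runx1 and Ampd3 lie below every control in all 6 libraries at 1 Hz and at 4 Hz, and Gadd45a lies above every control in all 6 libraries at 4 Hz.

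Per transcript length, Gadd45a was by far the most abundant of the 6 in every condition, at 644 ± 57.7 TPM (SD, n = 6) in the controls. Ncam1 came next at 129 ± 16.1 TPM, then Gadd45g at 67.5 ± 11.0 and Runx1 at 61.9 ± 2.36, whose libraries overlapped. Gadd45b at 29.2 ± 11.5 TPM and Ampd3 at 20.9 ± 1.79 TPM overlapped as well and closed the order. Gadd45a ranked 238 among all genes by its mean TPM in the controls and Ampd3 5768. At 4 Hz the order was Gadd45a (806 ± 117 TPM), Ncam1 (107 ± 21.0), Gadd45g (70.3 ± 14.5), Gadd45b (47.9 ± 15.4), Runx1 (33.4 ± 7.86), and Ampd3 (11.1 ± 2.70). There, Runx1 had moved behind Gadd45b, and the libraries of neighbours overlapped except for Gadd45a above Ncam1 and Runx1 above Ampd3.

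Gadd45a encodes the family member best known for muscle wasting. In CPM, its lowest, median, and highest control libraries were 367, 426, and 512. At 1 Hz these were 473, 606, and 809, and at 4 Hz 569, 693, and 767. All 6 libraries at 4 Hz and 5 of 6 at 1 Hz therefore stood above every control, with 1 Hz replicate 5 inside the control range. Its log2(fold change) at 1 Hz was 0.47 (standard error 0.12, adjusted p = 0.0035), and that at 4 Hz 0.61 (standard error 0.12, adjusted p = 0.00018), by edgeR's quasi-likelihood test, adjusted over all 13315 genes. At 10 Hz the libraries ran from 426 to 625 CPM with a median of 448, and replicates 3 and 5 (625 and 610) stood above every control while the other 4 lay within the control range. That difference was 0.18 on the log2 scale (95% interval -0.05 to 0.42, adjusted p = 0.76).

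To be called changed, a gene needed an adjusted p below 0.05 together with a log2(fold change) beyond 0.5 in either direction. Gadd45a met both at 4 Hz and only the first at 1 Hz. With an offset that removes each library's trend with transcript length, it stood at 0.31 (1 Hz, adjusted p = 0.0050) and 0.39 (4 Hz, adjusted p = 0.00047). Without the 5 libraries with the strongest trend it was 0.34 (adjusted p = 0.044) and 0.52 (adjusted p = 0.0058).

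Gadd45b, a family member also known as an early response gene, was the most variable of the 6, with a coefficient of variation of 39.4% in the controls and 71.4% at 10 Hz. Its control libraries ran from 11.3 to 29.2 CPM with a median of 21.3. At 4 Hz they ran from 22.0 to 63.8 with a median of 45.9, and 5 of 6 stood above every control. At 1 Hz they ran from 16.5 to 55.9 with a median of 29.1, and 3 of 6 stood above. On the log2 scale the difference was 1.07 at 4 Hz (standard error 0.394, adjusted p = 0.028) and 0.63 at 1 Hz (95% interval -0.14 to 1.40, adjusted p = 0.21). At 1 Hz the value was 0.47 with the length offset and 0.42 without the 5 libraries with the strongest trend. The call at 4 Hz was lost without control replicate 3, 4, or 5 or 4 Hz replicate 1, 3, or 4 (adjusted p between 0.051 and 0.074), with the length offset (log2(fold change) 0.85, adjusted p = 0.052), and without the 5 libraries with the strongest length trend (0.57, adjusted p = 0.37).

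At 10 Hz Gadd45b split into 4 libraries at 9.88 to 14.0 CPM and 2, replicates 3 and 5, at 44.8 and 32.3 CPM. Those 2 libraries were above every control, and 2 of the other 4 were below every control. Against control the log2(fold change) was -0.03 (95% interval -0.82 to 0.76, adjusted p = 1.0). Replicates 3 and 5 were also the highest of the 10 Hz group for Gadd45a and Gadd45g. In both, genes of up to 1000 bases stood 0.21 (log2) above the control mean, the largest such shift of the 10 Hz group, and its part in these values was not tested.

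Gadd45g, the third member of the family, did not pass the test against the controls at any frequency. Its lowest, median, and highest libraries in CPM were 27.5, 39.7, and 48.0 in the controls, 22.9, 42.1, and 56.7 at 1 Hz, and 35.4, 53.1, and 71.1 at 4 Hz. They were 25.1, 30.3, and 50.9 at 10 Hz. The groups overlapped throughout, though 4 of 6 libraries at 4 Hz lay above every control. Its log2(fold change) was 0.08 at 1 Hz (95% interval -0.32 to 0.47, adjusted p = 0.79), 0.39 at 4 Hz (-0.01 to 0.78, adjusted p = 0.11), and -0.16 at 10 Hz (-0.55 to 0.24, adjusted p = 0.93). With the length offset the values at 1 and 4 Hz were -0.11 and 0.11, and without the 5 libraries with the strongest trend -0.037 and 0.093.

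Together the 3 Gadd45 genes amounted to 741 ± 75.4 TPM (SD, n = 6) without stimulation and 869 ± 102, 924 ± 138, and 808 ± 121 TPM at 1, 4, and 10 Hz. Gadd45a supplied 87.1% ± 2.03 of that sum in the controls and 88.8% ± 1.82, 87.3% ± 2.12, and 89.5% ± 2.19 at 1, 4, and 10 Hz. The share of Gadd45b was 3.86% ± 1.23 in the controls and 5.13% ± 1.31 at 4 Hz, and its libraries ran from 2.56% to 5.30% and from 3.27% to 6.63%. That of Gadd45g was 9.08% ± 0.995 in the controls, 6.96% ± 1.00 at 1 Hz, and 7.58% ± 0.862 at 4 Hz. The ranges of the shares overlapped between every condition and the controls for each of the 3 genes. For Gadd45g at 1 Hz the overlap was narrow, with libraries from 5.19% to 7.83% beside 7.8% to 10.9% in the controls.

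**Figure D2:**
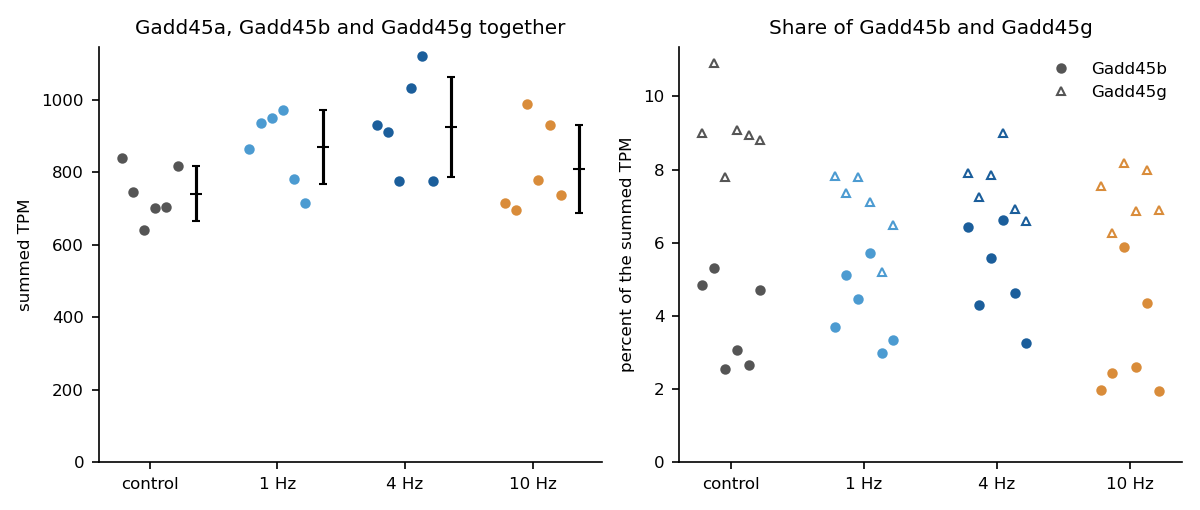
Left, summed TPM of Gadd45a, Gadd45b, and Gadd45g (y axis) in each of the 24 libraries by condition, with mean and SD of 6 as a dash and bar. Right, the percent of that sum from Gadd45b (filled circles) and Gadd45g (open triangles). The mean sum was 741 TPM in the controls and 924 TPM at 4 Hz, and the remainder, 87.1% to 89.5% on average, was Gadd45a.

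Runx1 encodes the DNA-binding subunit of a core-binding factor and is low in innervated adult muscle. Its control libraries lay close together, between 181 and 207 CPM with a median of 198. At 1 Hz they ran from 105 to 160 with a median of 119, and at 4 Hz from 89.5 to 138 with a median of 132. All 12 paced libraries at 1 and 4 Hz lay below every control. Runx1 fell, with a log2(fold change) of -0.66 at 1 Hz (standard error 0.106, adjusted p = 3.7e-05) and of -0.67 at 4 Hz (standard error 0.106, adjusted p = 1.4e-05). At 10 Hz the libraries ran from 143 to 201 with a median of 176, and 4 of 6 lay below every control. At that frequency the log2(fold change) was -0.17 (95% interval -0.37 to 0.04, adjusted p = 0.75).

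The lower Runx1 level at 1 and 4 Hz was called under every alternative tried, each library left out among them. With the length offset it was -0.56 (adjusted p = 1.9e-06) and -0.53 (adjusted p = 2.3e-06), and without the 5 libraries with the strongest trend -0.55 (adjusted p = 9.2e-05) and -0.57 (adjusted p = 0.00014). Beside these falls, all 4 markers of myoblasts and reserve cells passed the test at 1 and 4 Hz. Pax7, a factor of satellite cells, was at -1.58 and -1.53 (adjusted p = 4e-07 and 3.6e-07), while Myf5, a factor of myoblasts, was at 1.32 and 1.17 (2.7e-08 and 9.2e-08). Spry1 was at 0.98 and 1.31 (3.1e-06 and 2.2e-08) and Cd34 at 0.31 and 0.27 (0.0080 and 0.012). Their part in the levels of Runx1 and Ampd3 was not tested. These are bulk libraries, in which fewer cells of a kind and less RNA per cell cannot be told apart.

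Ampd3 encodes the AMP deaminase that denervated and wasting muscle turns on. Its lowest, median, and highest control libraries were 38.1, 46.2, and 48.5 CPM, those at 1 Hz 20.6, 30.1, and 33.3, and those at 4 Hz 25.8, 27.1, and 30.4. As with Runx1, all 12 libraries lay below every control. Ampd3 fell too, with a log2(fold change) of -0.65 at 1 Hz (standard error 0.104, adjusted p = 3.3e-05) and -0.70 at 4 Hz (standard error 0.105, adjusted p = 7.3e-06). At 10 Hz 5 of 6 libraries (26.5 to 41.2 CPM, median 35.8) lay below every control. That difference, -0.37 (95% interval -0.57 to -0.17), had an unadjusted p of 0.0014 and an adjusted p of 0.21 by edgeR, and 0.088 by DESeq2. By p it ranked 87 among all genes at 10 Hz, ahead of the other 5 genes.

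Ampd3 overlaps Rnf141 on the opposite strand, and how the counting used strand is not stated in the sources used here. Rnf141 was at 48.7 CPM in the controls, 51.6 at 1 Hz, and 50.3 at 4 Hz, with log2(fold changes) of 0.08 (adjusted p = 0.42) and 0.05 (adjusted p = 0.63). The genes that overlap Gadd45a, Ncam1, and Runx1 are long noncoding RNAs, and those that are listed in the files held at most 174 counts over all libraries. With the length offset Ampd3 was at -0.59 and -0.60 at 1 and 4 Hz (adjusted p = 1.9e-05 and 8.7e-06), and without the 5 libraries with the strongest trend at -0.51 and -0.68 (adjusted p = 0.00037 and 5.1e-05).

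Ncam1, whose product marks embryonic, regenerating, and denervated fibres, lay between 146 and 234 CPM in all 24 libraries. The control libraries ran from 170 to 234 with a median of 205, those at 1 Hz from 146 to 229 (median 181), those at 4 Hz from 179 to 225 (209), and those at 10 Hz from 185 to 232 (201). Only 2 libraries, both at 1 Hz (replicates 4 and 6), lay outside the control range. Its log2(fold change) was -0.15 at 1 Hz (95% interval -0.35 to 0.04, adjusted p = 0.22), 0.0048 at 4 Hz (-0.19 to 0.20, adjusted p = 0.97), and -4.1e-05 at 10 Hz (-0.19 to 0.19, adjusted p = 1.0). With the length offset Ncam1 was at -0.057 and 0.16 at 1 and 4 Hz (adjusted p = 0.58 and 0.079), and without the 5 libraries with the strongest trend at -0.019 and -0.025 (0.89 and 0.86). At 4 Hz the interval before these corrections leaves out changes of the size called for Runx1, -0.67, and Gadd45a, 0.61.

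**Figure D3:**
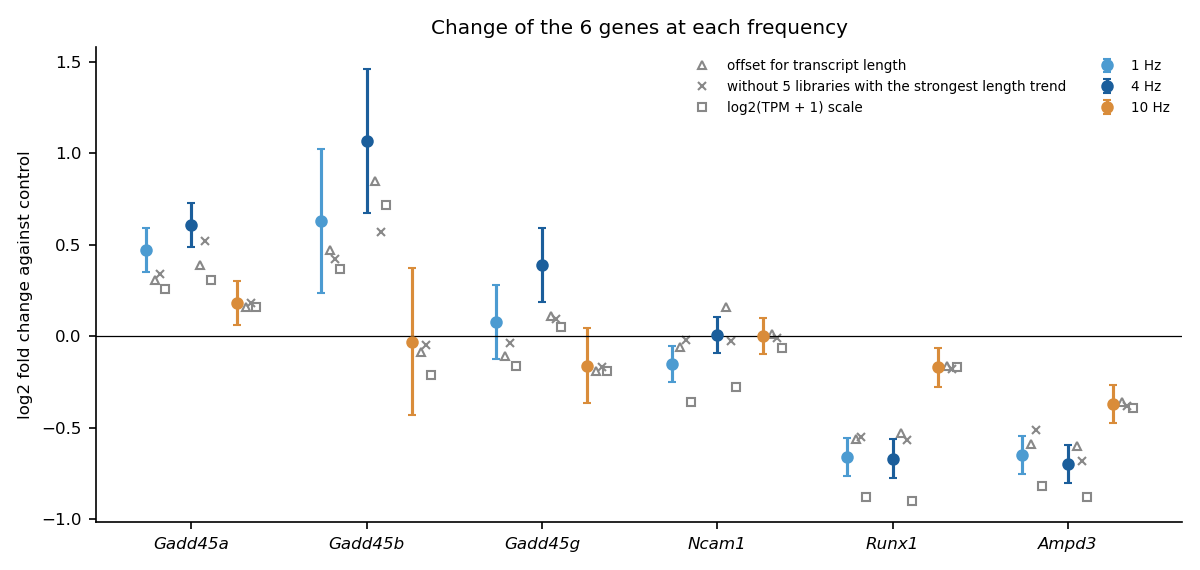
log2(fold change) against the controls (y axis) of each gene at 1, 4, and 10 Hz from edgeR on TMM-scaled counts, with its standard error as a bar. Open grey marks beside each point give the value with a length offset (triangle), without the 5 libraries with the strongest length trend (cross), and on the log2(TPM + 1) scale (square). Runx1 and Ampd3 stay at -0.51 or lower at 1 and 4 Hz in all 4 versions, and Gadd45b moves most, from 1.07 to 0.57 at 4 Hz.

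Counted by the full rule, 0 of the 6 genes were called higher and 2 lower at 1 Hz, where 7.19% and 7.74% of all genes tested were called. At 4 Hz 2 were higher and 2 lower, where 12.8% and 12.3% of all genes were. At 10 Hz 0 and 0 were called, beside 0.0150% and 0.0225% of all genes, and 0 passed by DESeq2. In edgeR 1 of the 6 had an unadjusted p under 0.05 there, as had 1074 of all 13315 genes. By the adjusted p alone, 1 was higher and 2 lower at 1 Hz (19.2% and 18.1% of all genes) and 2 and 2 at 4 Hz (27.5% and 23.9%). The groups did not overlap for 2 genes, both below the controls, at 1 Hz, where 8.58% of all genes lay wholly below. At 4 Hz 1 gene lay wholly above and 2 wholly below, beside 12.9% and 14.7% of all genes. The comparisons share their 6 control libraries.

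The scale mattered for the Gadd45 genes and Ncam1. The whole set of genes had a median of -0.14 (1 Hz) and -0.21 (4 Hz) on log2(TPM + 1), where the TMM scale gave 0.04 and 0.06. Relative to that median, Gadd45a was at 0.40 at 1 Hz and 0.52 at 4 Hz, Gadd45b at 0.51 and 0.93, and Gadd45g at -0.02 and 0.26. Runx1 was at -0.74 and -0.69, Ampd3 at -0.68 and -0.67, and Ncam1 at -0.22 and -0.07. On the TPM scale itself Gadd45a was at 0.31 at 4 Hz (adjusted p = 0.0090 by limma), under the fold threshold, while Gadd45g at 1 Hz (-0.16) and Ncam1 at 4 Hz (-0.28) had the opposite sign to the TMM scale.

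The 6 genes lay at different distances from the median of genes of like length. The spread within each class of length was not examined, so these distances do not show how unusual a gene is in its class. Tested genes with transcripts of 1000 to 2000 bases, the class of the Gadd45 genes, had a median log2(fold change) of 0.16 at 1 Hz and 0.23 at 4 Hz, and those of 4000 to 8000 bases, the class of the other 3, -0.06 and -0.08. Gadd45a at 0.47 and 0.61 and Gadd45b at 0.63 and 1.07 were above their class median at both frequencies. Gadd45g at 0.08 was below it at 1 Hz and at 0.39 above it at 4 Hz. Runx1 (-0.66 and -0.67) and Ampd3 (-0.65 and -0.70) were below theirs at both frequencies, and Ncam1 at -0.15 and 0.0048 lay on either side of it. At 10 Hz the class medians were 0.02 and -0.0033.

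**Figure D4:**
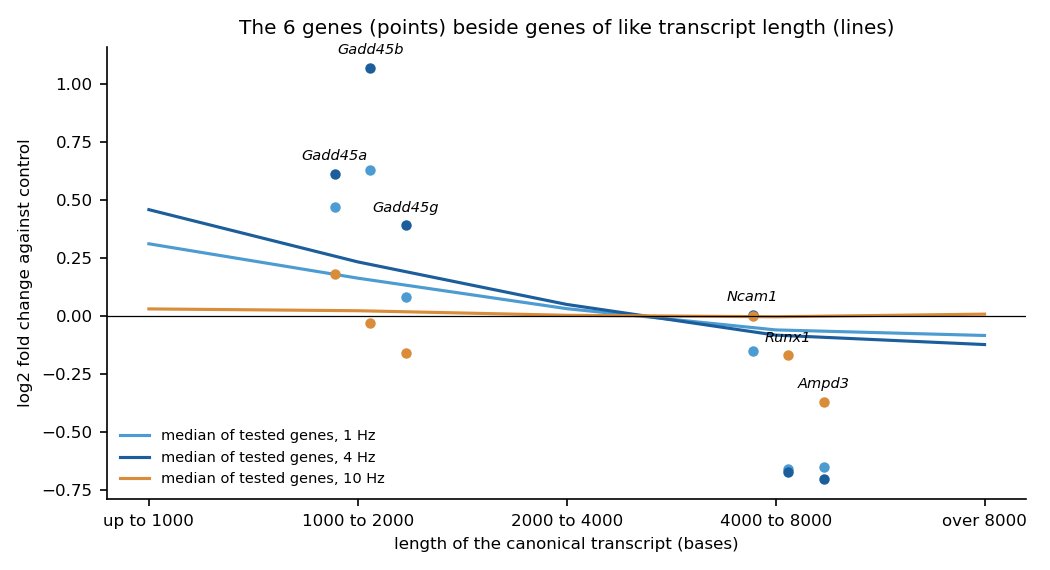
log2(fold change) against the controls (y axis) by class of canonical transcript length in bases (x axis). Lines join the medians of all tested genes in each class at 1, 4, and 10 Hz, and points are the 6 genes in their class. The medians at 4 Hz fall from 0.46 for transcripts of up to 1000 bases to -0.12 for those over 8000, while those at 10 Hz stay within 0.04 of 0.

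Compared directly in the same fit, 1 and 4 Hz gave 0 calls among the 6 genes, and 0% of all genes were called in either direction there. The largest difference was in Gadd45b (4 Hz minus 1 Hz, 0.44, 95% interval -0.32 to 1.20, adjusted p = 0.67). For Runx1 it was -0.01 (-0.22 to 0.19) and for Ampd3 -0.05 (-0.26 to 0.16). By edgeR 0 of the 6 had an unadjusted p under 0.05 in that comparison, beside 1465 of all 13315 genes, and DESeq2 called 0.

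Between 10 and 4 Hz, 1 of the 6 genes was called higher at 10 Hz and 2 lower, where 10.6% of all genes were called higher and 10.6% lower. Runx1 was higher at 10 Hz by 0.50 (standard error 0.107, adjusted p = 0.00056), with every 10 Hz library above every 4 Hz library, as for 10.8% of all genes. Gadd45b fell by 1.11 (adjusted p = 0.029) and Gadd45g fell by 0.55 (adjusted p = 0.032), each with 4 of 6 libraries at 10 Hz below every 4 Hz library. By the adjusted p alone Ampd3 was higher too, by 0.33 (adjusted p = 0.014), and Gadd45a fell by 0.43 (adjusted p = 0.0053), which makes 2 higher and 3 lower beside 21.9% and 24.4% of all genes. The difference of Gadd45a did not pass on log2(TPM + 1) (-0.16, adjusted p = 0.19) or without the 5 libraries with the strongest length trend (-0.34, adjusted p = 0.066), and that of Ampd3 did not pass on log2(TPM + 1) (0.49, adjusted p = 0.051).

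The calls of Gadd45b and Gadd45g in that comparison rested on few libraries, and that of Gadd45g also on the scale. Gadd45g did not pass with the length offset (-0.31, adjusted p = 0.14) or on log2(TPM + 1) (-0.24, adjusted p = 0.26), where Gadd45b did. With no filter neither Gadd45b nor Gadd45g passed (adjusted p = 0.068 and 0.11). Leaving out 1 library at a time ended the call in 6 of 12 fits for Gadd45b and 7 of 12 for Gadd45g, with adjusted p of up to 0.074 and 0.10, and both were lost without the 5 libraries with the strongest length trend (-0.62, adjusted p = 0.36, and -0.26, adjusted p = 0.45). Runx1 passed at an adjusted p of 0.0021 or less in all 12, though its log2(fold change), between 0.45 and 0.57, was under the threshold of 0.5 in 5 of them, and it was 0.39 (adjusted p = 0.0053) without those 5 libraries.

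Between 10 and 1 Hz, 0 of the 6 were called in either direction, beside 5.85% of all genes called higher at 10 Hz and 4.99% lower. By the adjusted p alone 2 were higher at 10 Hz, beside 14.8% of all genes. These were Runx1, by 0.49 (adjusted p = 0.0014), and Ampd3, by 0.28 (adjusted p = 0.049). The adjusted p of Ampd3 rose above 0.05 in 6 of the 12 fits that left a library out, to at most 0.15, and in 6 of 9 fits with another scaling, filter, set of groups, block, tool, or unit, to at most 0.13. With the length offset it was 0.23 (adjusted p = 0.068), and without the 5 libraries with the strongest length trend 0.13 (adjusted p = 0.36). Unadjusted p was under 0.05 for 3 of the 6 genes by edgeR, beside 5401 of all 13315 genes, and DESeq2 called 0.

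Other genes with a known response to denervation gave a mixed picture. Of 20 that rise in denervated muscle, 2 were called higher and 5 lower at 1 Hz (7.19% and 7.74% of all genes). At 4 Hz 2 were called higher and 3 lower (12.8% and 12.3% of all genes). At 10 Hz 0 were called, and unadjusted p was under 0.05 for 1074 of all 13315 genes and 6 of the 20. Their medians in that order were -0.18, -0.08, and -0.09, beside 0.04, 0.06, and 0.01 for all genes. On log2(TPM + 1) the medians at 1 and 4 Hz were -0.45 and -0.36, where all genes had -0.14 and -0.21. On that scale 9 and 7 of the 20 were called in either direction. Of all 13422 genes tested there, 198 were called higher and 1710 lower at 1 Hz, and 333 and 3166 at 4 Hz. Among the 20 genes on the TMM scale, the following stood out. Myog and Myod1, the myogenic factors that drive acetylcholine receptor genes, were the most changed of them, at -1.34 and -1.42 at 1 Hz and -1.47 and -1.75 at 4 Hz (adjusted p of 2.5e-11 or less). Dok7, a scaffold of the neuromuscular junction, was called lower at 1 Hz (-0.50, adjusted p = 4.9e-05) and passed by p alone at 4 Hz (-0.38, adjusted p = 0.00058). Fbxo30, a ubiquitin ligase of muscle wasting, was called higher at 0.67 and 0.65 (adjusted p = 1.7e-05 and 1.2e-05).

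The genes named next were picked after their values were seen. The acetylcholine receptor subunits, the classic genes of denervated muscle, mostly did not pass the test. Chrna1 was at -0.09 and 0.04 (adjusted p = 0.26 and 0.62) at 1 and 4 Hz, Chrnb1 at -0.17 and 0.01 (0.090 and 0.90), and Chrng, the fetal subunit, at -0.13 and 0.21 (0.27 and 0.054). Chrnd was at -0.39 at 1 Hz (adjusted p = 0.00078), under the fold threshold, and -0.15 at 4 Hz (adjusted p = 0.12). Hdac4, upstream of Myog and Gadd45a after denervation, was at 0.20 and 0.23 (adjusted p = 0.13 and 0.061). Cdkn1a, which Gadd45a is known to act beside in growth arrest, was at 0.06 and 0.07 (adjusted p = 0.57 and 0.51). The ubiquitin ligases of muscle wasting did not move as one either. Fbxo32 was called higher at 0.65 and 0.82 (adjusted p = 0.0018 and 0.00010) like Fbxo30, while Trim63 was lower by p alone (-0.44 and -0.29, adjusted p = 0.0025 and 0.027).

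Of 4 genes that fall in denervated muscle, 3 were tested. Hdac9, a repressor of the denervation programme, was called higher at both 1 Hz (0.57, adjusted p = 0.0015) and 4 Hz (0.59, adjusted p = 0.00064), with 5.54 ± 1.16 CPM (SD, n = 6) in unstimulated tissue and 8.18 ± 0.769 and 8.31 ± 1.12. The list had a median of 0.31 at 1 Hz, 0.50 at 4 Hz, and -0.16 at 10 Hz. On log2(TPM + 1) its medians at 1 and 4 Hz were -0.049 and 0.14 and 0 of its genes were called. Dach2, the corepressor that holds Myog down in innervated fibres, was at 0.0263 CPM in the controls and was not tested.

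**Figure D5:**
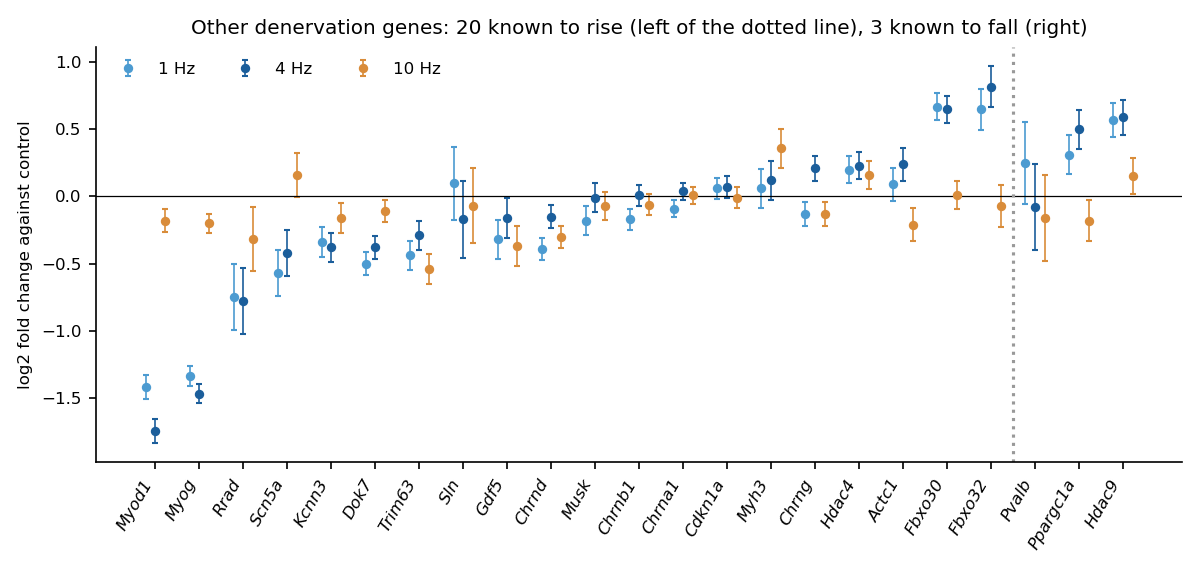
log2(fold change) against the controls with its standard error (y axis) of other denervation genes at 1, 4, and 10 Hz, on the TMM scale. Left of the dotted line are 20 genes known to rise after denervation, ordered by the value at 4 Hz, and right of it the 3 tested genes known to fall. Myod1 and Myog stand lowest, at -1.75 and -1.47 at 4 Hz, and Fbxo30 and Fbxo32 highest, at 0.65 and 0.82.

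Among 14 genes of proteins that work with GADD45, 1 was called higher and 1 lower at 1 Hz, beside 7.19% and 7.74% of all genes, and 2 higher and 1 lower at 4 Hz, beside 12.8% and 12.3%. Cdk1, the mitotic kinase that GADD45 proteins hold back, was called higher at 0.62 and 0.51 (adjusted p = 0.00035 and 0.0015). Its partner cyclin Ccnb1 was called lower at 4 Hz (-1.06, adjusted p = 0.0081). Map2k6, a kinase upstream of p38, was called higher at 4 Hz (0.71, adjusted p = 0.0070). Tet3, a DNA demethylase, was called lower at 1 Hz (-0.52, adjusted p = 0.0031). Gadd45gip1, whose protein binds all 3 family members, was at -0.18 and -0.20 (adjusted p = 0.10 and 0.056). The median of the list was -0.01 at 1 Hz and -0.14 at 4 Hz, or -0.21 and -0.40 on log2(TPM + 1). At 10 Hz 0 were called, with 0 at an unadjusted p under 0.05, beside 1074 of all 13315 genes.

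Of 10 genes known to control Gadd45 genes, 2 were called higher and 0 lower at both 1 and 4 Hz, where 7.19% and 12.8% of all genes were called higher. By the adjusted p alone 3 were higher and 1 lower at 1 Hz (19.2% and 18.1% of all genes). At 4 Hz 3 were higher and 2 lower (27.5% and 23.9%). Ddit3, a stress-induced factor also called CHOP, had 116 ± 20.8 CPM (SD, n = 6) in unstimulated tissue and 194 ± 65.9 and 267 ± 80.7 in paced tissue, or 0.75 and 1.20 (adjusted p = 0.020 and 0.00039). Foxo3, a factor of muscle wasting, went from 89.3 ± 7.51 to 132 ± 10.9 and 147 ± 14.7, or 0.57 and 0.72 (adjusted p = 4.2e-06 and 7.3e-08). Those that passed by p alone were picked after their values were seen. Atf4 was higher at 0.41 and 0.49 (adjusted p = 0.00013 and 7.3e-06). Trp53 was lower at -0.33 and -0.49 (adjusted p = 0.0027 and 3e-05), and Smad4 was lower at 4 Hz (-0.20, adjusted p = 0.046). The list's median was 0.05, -0.02, and 0.07 at 1, 4, and 10 Hz. At 10 Hz 0 were called, and 1 had an unadjusted p under 0.05, beside 1074 of all 13315 genes. On log2(TPM + 1) the medians at 1 and 4 Hz were -0.19 and -0.32.

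Among 11 genes of partners of NCAM1, 9 were tested, and 4 were called lower at 1 Hz and 4 at 4 Hz, with 0 and 1 higher. Among all genes 7.74% and 12.3% were called lower. The 1 higher gene, L1cam, an adhesion molecule of nerve cells named after its values were seen, was at 0.51 at 4 Hz (adjusted p = 0.025). St8sia2, the enzyme that adds polysialic acid to NCAM1, had 16.7 ± 0.998 CPM (SD, n = 6) in unstimulated tissue, 7.47 ± 2.25 at 1 Hz, and 9.15 ± 1.85 at 4 Hz, or -1.17 and -0.87 (adjusted p = 2.2e-06 and 4.1e-05). Cdh15 and Cdh2, the cadherins of muscle cells, were at -1.10 and -0.84 at 1 Hz and -1.12 and -0.83 at 4 Hz (adjusted p of 3.6e-08 or less). Ptk2, the focal adhesion kinase, was called lower at 4 Hz (-0.58, adjusted p = 7.4e-06) and passed by p alone at 1 Hz (-0.37, adjusted p = 0.0016). For St8sia2, Cdh2, Cdh15, and Ptk2 all 12 libraries at 1 and 4 Hz lay below every control, as did those of 8.58% of all genes at 1 Hz and 14.7% at 4 Hz. The list's medians were -0.49, -0.58, and -0.03 in order of frequency. At 1 and 4 Hz they were -0.48 and -0.70 on log2(TPM + 1), and -0.39 and -0.46 with the length offset. Without the 5 libraries with the strongest length trend they were -0.28 and -0.50. At 10 Hz 0 were called, and 2 had an unadjusted p under 0.05, beside 1074 of all 13315 genes. Ncam2, the only paralog of Ncam1, had a mean of at most 0.0141 CPM in every group.

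Of 8 genes that work with or resemble Runx1, 7 were tested, and 1 was called lower at 1 Hz and 2 at 4 Hz, with 0 higher, beside 7.74% and 12.3% of all genes called lower. Runx3, a paralog, was at -0.73 and -0.78 (adjusted p = 1.2e-05 and 2.8e-06), with 60.9 ± 7.37 CPM (SD, n = 6) in unstimulated tissue and 36.8 ± 6.62 and 35.5 ± 2.74 CPM in paced tissue. Cbfb, the subunit that every RUNX protein binds, was called lower at 4 Hz (-0.64, adjusted p = 3.1e-07) and passed by p alone at 1 Hz (-0.39, adjusted p = 0.00025). Runx2, the paralog of bone formation, was at 0.03 and 0.05 (adjusted p = 0.82 and 0.74). At 10 Hz 0 of the 7 were called, and 1 had an unadjusted p under 0.05, as had 1074 of all 13315 genes. The medians of the list were -0.18, -0.31, and 0.10 at 1, 4, and 10 Hz. At 1 and 4 Hz they were -0.23 and -0.46 on log2(TPM + 1), and -0.088 and -0.12 with the length offset. Without the 5 libraries with the strongest length trend they were -0.15 and -0.23. Per transcript length the controls held 61.9 TPM of Runx1, 25.4 of Runx3, and 12.3 of Runx2.

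Of 17 genes of purine nucleotide turnover, 16 were tested, and 0 were called at 1 Hz. There 8 had an unadjusted p under 0.05, beside 6241 of all 13315 genes. At 4 Hz 1 was called, where 12.8% of all genes were called higher. The 1 gene was Nt5e, the ectoenzyme that turns AMP into adenosine, which was higher at 0.64 (adjusted p = 4.2e-06). Ampd2, the paralog of non-muscle tissues, was at -0.11 and -0.14 (adjusted p = 0.28 and 0.15), and it lay near Ampd3 in the controls, at 17.0 TPM beside 20.9. Ampd1, the isoform of adult fast fibres, had a mean of 0.919 CPM in the controls and was not tested. The medians of the list were 0.14, 0.15, and 0.04 at 1, 4, and 10 Hz, and on log2(TPM + 1) -0.08 and -0.16 at 1 and 4 Hz.

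Over the 24 libraries the log2 CPM of the Gadd45 genes rose and fell together. Pearson's r was 0.89 between Gadd45a and Gadd45b, 0.78 between Gadd45a and Gadd45g, and 0.92 between Gadd45b and Gadd45g. Taking out the mean of each condition left 0.90, 0.87, and 0.92, so the likeness was as high between libraries of the same condition. Runx1 and Ampd3 had an r of 0.83, and 0.48 within conditions. Ncam1 had an r between -0.26 and 0.48 with the other 5. These are descriptions over libraries that share the length trend given above.

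The genes most like each of the 6 in log2 CPM over the 24 libraries were sought among 11739 others. Gadd45b was most like Rsrp1 (Pearson's r 0.949), Egr1 (0.945), and Ier2 (0.942), the last 2 being immediate early genes. Gadd45g was most like Fos (0.935), Rsrp1 (0.931), and Rgs16 (0.929). All 5 of these genes had their highest and second highest 10 Hz libraries in replicates 3 and 5, as Gadd45b and Gadd45g had. Fos, for example, was at 96.8 and 62.2 CPM in these and at most 17.9 CPM in the other 4. The spread of Fos and Egr1 within groups was wide, from 4.00 to 52.5 and from 74.1 to 346 CPM in the controls, and neither passed the test at 4 Hz (adjusted p = 0.15 and 0.087).

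Gadd45a was most like B4gat1 (r 0.944), Selenom (0.944), and Gabarap (0.943), all of which passed the test as higher at 4 Hz (0.50, 0.50, and 0.36). Runx1 was most like Znrf3 (0.976), Pcgf3 (0.968), and Otud4 (0.958), with transcripts of 6403 to 7717 bases, and all 3 were called lower at 4 Hz (-0.96, -0.57, and -1.05). For Ampd3 these were Usp15 (0.902), Zfp180 (0.901), and the clock gene Arntl (0.893), which was at -0.41 and -0.59 at 1 and 4 Hz (adjusted p = 0.0049 and 0.00012). Ncam1 was most like Man2a2 (0.910), Gprc5b (0.894), and Chd3 (0.893), none of which passed at any frequency. Spearman's rho for these 18 pairs lay between 0.823 and 0.951, and r within conditions between 0.652 and 0.956.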

How the data were processed

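RNA of C2C12 tissues was sequenced as read pairs from directional poly(A) libraries, and low-input samples were ribodepleted, though the labels do not say which. The authors processed the reads with nf-core/rnaseq (STAR and Salmon per the labels) on GRCm39 with the Ensembl annotation, and BWA-MEM is also named. Libraries of the 30-min experiment are not analysed here. The deposited estimated counts per gene are Salmon's, not normalized, and the deposited TPM were divided by transcript length by the authors and sum to 1000000 per library. Counting by strand is not stated in the sources used here.

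Estimated counts were rounded, filtered with filterByExpr (minimum count 10, total 15), and scaled by TMM. Each of the 6 comparisons came from 1 fit of all 24 libraries by the quasi-likelihood F test of edgeR 4.0.16 in R 4.3.3, with Benjamini-Hochberg adjustment over 13315 genes. Intervals are the estimate ± 1.96 standard errors. The fit's biological coefficient of variation was 14.8%, and smaller changes than that spread allows could be missed. Depth was 8052369 to 18159144 counts per library. The method was tested on simulated counts for the controls and 1 Hz alone. Changes as small as those of Runx1 and Ampd3 and the length trend were not simulated.

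Alternatives were RLE or upper-quartile factors, dropping the filter or raising it to 50 counts in 6 libraries, fits of 2 groups alone, the replicate number as a block, DESeq2 1.42.0, limma 3.58.1 on log2(TPM + 1) and log2(TPM + 0.1) for genes at 1 TPM in 6 libraries, no fold threshold, and each library left out. Added after seeing the data were offsets for transcript length or GC content (lowess, span 0.5) and leaving out the 5 libraries with the strongest length trend.

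Genes named are the 6, their paralogs and partners, up to 4 called genes with the smallest p from each of 7 lists of related genes, and the 3 genes most like each of the 6 (average log2 CPM of at least 1). Others are said to be picked by value. The members and lists were chosen with earlier results of these data known. Positions and promoters are from the GRCm39 genome with GENCODE M39. In a list, Adss1, Adss2, and Hprt1 were found by identifier, and of 2 rows named Ddit3 the larger was used. The paper calls the 6 libraries of a condition biological replicates of 1 line.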

Additional observations from a re-analysis of the deposited data

Results flagged for a closer look

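Between 10 and 4 Hz, 5 of the 6 genes passed edgeR's test of the difference itself, and 3 of them also passed the fold threshold. Of all genes tested, 21.9% passed as higher at 10 Hz and 24.4% as lower. With the fold threshold these were 10.6% and 10.6%. The log2(fold change), 10 Hz minus 4 Hz, was -1.11 for Gadd45b (adjusted p = 0.029), -0.55 for Gadd45g (adjusted p = 0.032), and 0.50 for Runx1 (adjusted p = 0.00056). It was -0.43 for Gadd45a (adjusted p = 0.0053) and 0.33 for Ampd3 (adjusted p = 0.014), both under the fold threshold. Leaving out 1 library ended the call of Gadd45b in 6 of 12 fits and that of Gadd45g in 7 of 12. Gadd45g also did not pass with the length offset (-0.31, adjusted p = 0.14) or on log2(TPM + 1) (-0.24, adjusted p = 0.26).

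Between 10 and 1 Hz, 2 genes passed by adjusted p alone, Runx1 at 0.49 (adjusted p = 0.0014) and Ampd3 at 0.28 (adjusted p = 0.049). Both were higher at 10 Hz, as were 14.8% of all genes by the adjusted p. Leaving out 1 library ended the pass of Ampd3 in 6 of 12 fits.

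In 4 Hz replicate 2, Ampd3 was at 30.4 CPM, apart from the other 5 libraries of its group at 25.8 to 27.4 CPM by Dixon's criterion, yet below every control. It is the 1 such value in 24 groups examined, and chance gives about 1 in 20 groups.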

How the results depend on the processing

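Runx1 and Ampd3 kept their calls at 1 and 4 Hz in every alternative run, and Gadd45a passed by adjusted p there in every one. Values are log2(fold changes), and for the rest the cause was not tested. Gadd45b at 4 Hz lost its call with no filter (1.03), the replicate block (0.96), log2(TPM + 1) (0.72), log2(TPM + 0.1) (0.74), the length offset (0.85), and without the 5 libraries with the strongest length trend (0.57), and ran from 0.91 to 1.22 with libraries left out in turn. Same-numbered replicates deviated together (r over 0.1) in 3 of 36 pairs, so the numbers were not taken to pair libraries. The count of the 6 genes called at 4 Hz (4) was 2 on both TPM scales and with the length offset. Of all 13422 genes on log2(TPM + 1), 333 were called higher there and 3166 lower. On log2(TPM + 0.1) these were 386 and 3487, and with the length offset 1466 and 1413 of 13301. Between 10 and 1 Hz the count of the 6 (0) was 1 with no filter and on the TPM scales. It was 2 with no fold threshold and 0 to 2 with libraries left out. With no filter, 827 of all 27811 genes were called higher and 440 lower. On log2(TPM + 1) these were 1233 and 134 of 13422, and with no fold threshold 1974 and 1739 of 13315. Between 10 and 4 Hz the count of the 6 (3) was 1 with no filter, the replicate block, and either offset, and 0 without the 5 libraries. It was 5 with no fold threshold and 0 to 3 with libraries left out. With no filter, 1590 of all 27811 genes were called higher and 1167 lower, and with the block 1540 and 1229 of 13709. With the length offset these were 1174 and 1266 of 13301, and with the GC offset 1398 and 1367. Without the 5 libraries they were 1053 and 632 of 13558, and with no fold threshold 2918 and 3245 of 13315.

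Values near 0 changed sign, none of them past the test. Gadd45g at 1 Hz was -0.16 on both TPM scales, -0.11 with the length offset, and -0.037 without the 5 libraries, and -0.061 to 0.20 with libraries left out. Ncam1 at 4 Hz was -0.021 with RLE factors and DESeq2, -0.039 with no filter, -0.00045 with the strict filter, -0.022 with 2 groups, -0.014 with the replicate block, -0.28 on both TPM scales, and -0.025 without the 5 libraries (left out in turn, -0.061 to 0.046). At 10 Hz it was 0.0084 with the replicate block, 0.010 with the length offset, and 0.0041 with the GC offset (-0.045 to 0.041). Between 10 and 4 Hz it was 0.017 with RLE factors and DESeq2, 0.030 with no filter, 0.020 with 2 groups, 0.022 with the replicate block, 0.22 on both TPM scales, and 0.016 without the 5 libraries (-0.043 to 0.042), and between 4 and 1 Hz -0.0058 without them. Runx1 between 4 and 1 Hz was 0.035 with the length and 0.025 with the GC offset (-0.067 to 0.072). Gadd45b at 10 Hz ran from -0.43 to 0.12 with libraries left out.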
